A study of Mus musculus with 25 samples.

Results

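The comparison set haematopoietic stem cells (HSCs) recovered after transplantation of 10 cells against those recovered after transplantation of 500 cells. It used 9 of the 25 libraries of the series. Of the 5 libraries from 10 cells, 3 had started from young and 2 from old HSCs. Of the 4 libraries from 500 cells, 1 had started from young and 3 from old HSCs. Libraries were chosen by these labels and the origin, young or old, was a covariate in each test over all 9. As intermediate values, 2 libraries from 50 cells were read, 1 of each origin. As a background, 4 libraries that had not been transplanted were read, 2 from bone marrow of young mice of 3.5 months and 2 from old mice of 25 months. The mice were C57Bl/6 and every one of these libraries was labelled as HSC DNA from bone marrow. The labels give no age in months for the transplanted cells, and no sex, recipient, conditioning or time after transplantation. They do not say whether replicates came from separate mice, so the p-values measure the spread between these libraries, which may be technical. No expression was measured, so the labelled cell type could not be checked against marker genes.

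HSCs maintain their own number and produce every kind of blood cell, and very few of them can rebuild the blood system of an irradiated recipient. The series was designed to follow methylation after a forced history of proliferation, and the number of transplanted cells sets how many founders share that task. DNA methylation is the addition of a methyl group to the cytosine of a CpG, and maintenance enzymes copy it to the new strand at each cell division. CpG islands, dense in CpGs and common at promoters, are mostly unmethylated, and isolated CpGs in the rest of the genome are mostly methylated.

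Methylation was read by reduced representation bisulfite sequencing (RRBS), in which restriction fragments are exposed to bisulfite before sequencing and a cytosine without a methyl group then reads as thymine. A methylation level is the percent of reads that kept their cytosine. The 9 libraries held between 30637818 and 56547651 reads. The comparison used 1040707 autosomal CpGs with at least 5 reads in all 9 libraries, 54.2% of the 1919399 autosomal CpGs seen. They were summed in 95552 tiles of 1000 bases with at least 3 such CpGs, and the median tile held 118 to 219 reads, depending on the library. No pair of the 9 libraries was a copy: at most 0.134% of tiles had the same reads in both, and their tile levels correlated at 0.965 to 0.989.

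A pair of the 500-cell libraries stood apart from the other 7. The library from 500 young cells and replicate 3 from 500 old cells held 36.0% and 34.4% of their reads on CpG-rich tiles, those with 30 or more covered CpGs, against 27.2% to 32.7% in the rest. At 57 CpG-rich tiles that were between 20% and 80% in every library, their mean levels were 32.9% and 34.2%, against 37.2% to 44.4% in the other 7. These libraries were singled out after their values were seen. Whether this makeup of the reads plays a part in the results was not tested, and values of classes and single tiles that move by over 1.5 times without them are given both ways.

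Methylation was lower after transplantation of 10 cells than of 500. Averaged over all CpGs, the level was 38.0%, 39.1% and 38.0% in the libraries from 10 young cells and 38.3% and 39.0% in those from 10 old cells. It was 40.5% in the library from 500 young cells and 40.02%, 40.6% and 40.3% in those from 500 old cells. Every 10-cell library lay below every 500-cell library, whatever the origin. The means were 38.5% ± 0.541 (SD, n = 5) and 40.3% ± 0.241 (SD, n = 4), and the difference adjusted for origin was -1.82 ± 0.337 percentage points (SE). In an exact two-sided permutation test over the 40 arrangements within origin, p was 0.025, the smallest these arrangements allow (adjusted p = 0.0417 over 25 measures of this kind). Many of the 25 measures share tiles or CpGs and reach this same p, and most were chosen after the values were seen. The number of measures at that p sets the adjusted value, here and below, so it adds no separate support. The difference was -2.10 points among young and -1.64 points among old libraries. Without both libraries that stood apart it was -1.65 points with the groups still separate, and the 6 arrangements left allow no exact p below 0.333.

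Both groups lay below cells that had not been transplanted, which read 41.3% and 42.2% in young and 44.1% in each old library. The 50-cell libraries read 39.9% (young) and 39.1% (old), between the 10-cell and 500-cell means of their origin in each case. With 1 library per origin this position has no replicate error. The order depended on each CpG counting equally. As a share of all reads, which gives deeply read CpGs more weight, the 10-cell libraries were 2.29 ± 2.66 points (SE) higher (exact permutation p = 0.425). That share was lowest, 27.5% and 30.2%, in both libraries that stood apart and ran from 30.4% to 40.4% in the others.

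**Figure D1:**
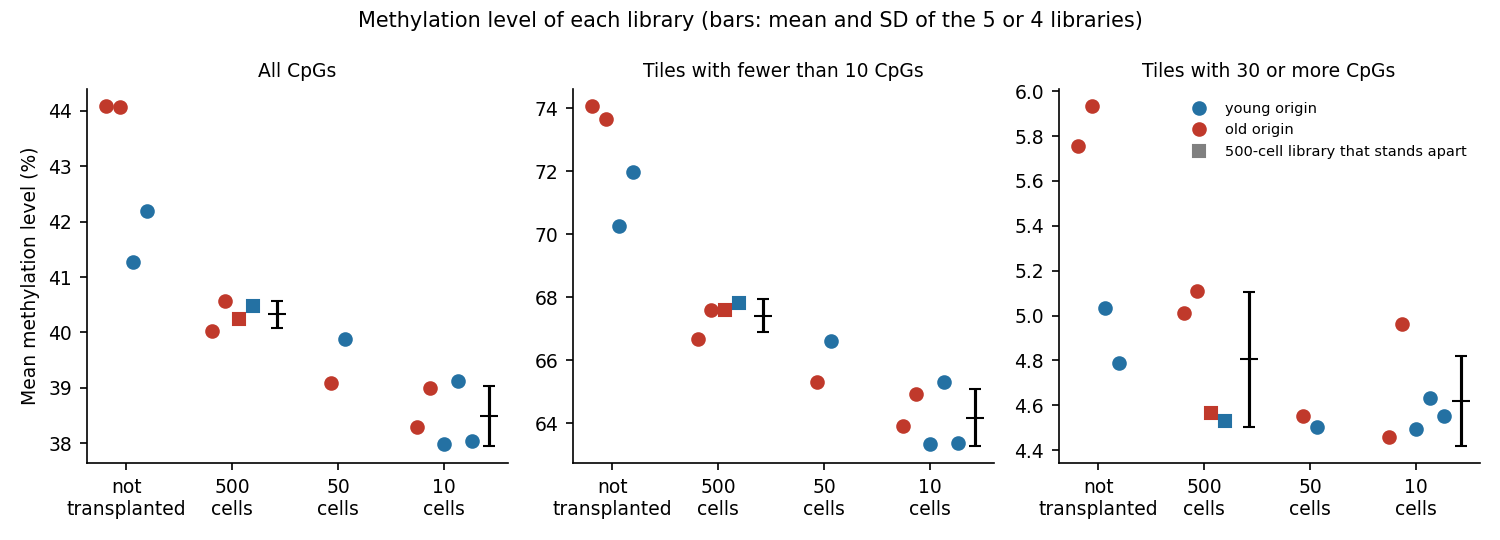
Mean methylation level in percent of each library (1 point each) for all CpGs, for tiles with fewer than 10 CpGs and for tiles with 30 or more, ordered by the number of transplanted cells, with blue for young and red for old origin. Vertical axes differ and do not start at 0; the 10-cell points sit below all 500-cell points in the first and second panels and overlap them in the third.

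By CpG density, CpG-poor tiles read lower after 10 cells, and CpG-rich tiles overlapped between the groups unless both libraries that stood apart were left out. In tiles with fewer than 10 covered CpGs, which were 72001 of the 95552, the 5 libraries from 10 cells read 63.4% to 65.3% (median 63.9%) and the 4 from 500 cells 66.7% to 67.8%, with no overlap. The adjusted difference was -3.24 ± 0.588 points (SE; exact permutation p = 0.025, adjusted p = 0.0417), and -2.72 points without both libraries that stood apart. In the 17426 tiles with 10 to 29 CpGs it was -0.941 ± 0.276 points, again with no overlap and an exact permutation p of 0.025. In the 6125 tiles with 30 or more CpGs the libraries read 4.46% to 4.96% after 10 cells and 4.53% to 5.11% after 500 cells. There the groups overlapped and the difference was -0.104 ± 0.167 points (exact permutation p = 0.5). Without both libraries that stood apart it was -0.351 points, and the remaining 500-cell libraries, at 5.01% and 5.11%, lay above all 10-cell libraries. The differences between these classes were not themselves tested.

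Sorted by their level in untransplanted cells, methylated tiles read lower after 10 cells than after 500. In the 53481 tiles at 80% or more in untransplanted cells, the 10-cell libraries read 80.04% to 82.5% (median 80.8%) and the 500-cell libraries 84.1% to 86.8%. The difference was -4.52 ± 0.771 points (SE; exact permutation p = 0.025, adjusted p = 0.0417), and 89.3% of these tiles were lower with 10 cells. Without both libraries that stood apart it was -3.23 points. Tiles between 20% and 80% differed by -0.833 ± 1.33 points (exact permutation p = 0.55) and tiles under 20% by 0.243 ± 0.343 points (exact permutation p = 0.55), and in both classes the groups overlapped. The sign for tiles under 20% rests on the libraries that stood apart, and was -0.346 points without them; for tiles between 20% and 80% the value without them was -2.27 points, still with overlap. At 80% or more, CpG-poor tiles differed by -4.68 ± 0.799 points, tiles of 10 to 29 CpGs by -3.26 ± 0.571 and the 182 methylated tiles with 30 or more CpGs by -3.61 ± 0.673. Dense CpGs that were methylated thus also read lower with 10 cells, with no overlap in any of the 3 classes. Without both libraries that stood apart the last value was -2.31 points.

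At CpGs far from another covered CpG the values lay further below 0. CpGs of the genome that no library covered were not counted as neighbours. Among CpGs at 80% or more in untransplanted cells, the 136270 with another covered CpG within 2 to 10 bases differed by -3.59 ± 0.545 points (SE). The 150721 whose nearest covered CpG lay 11 to 50 bases away differed by -4.47 ± 0.738 points. The 104815 with no covered CpG within 50 bases read 77.6% to 80.9% (median 78.6%) after 10 cells and 82.6% to 86.5% after 500 cells. Without transplantation they read 90.3% to 93.5%, a level that the choice of CpGs at 80% or more sets in part. Between 10 and 500 cells they differed by -5.93 ± 1.11 points. The groups did not overlap in any of these classes, and each had an exact permutation p of 0.025 (adjusted p = 0.0417). Without both libraries that stood apart the values were -2.72, -3.24 and -4.01 points, in the same order, and the gradient itself was not tested.

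The neighbourhood on a larger scale showed no order that held without both libraries that stood apart. Methylated CpG-poor tiles in megabases with 21 to 278 covered CpGs differed by -5.02 ± 0.944 points (SE), and those in megabases with 729 to 2880 covered CpGs by -4.18 ± 0.707 points. The groups of tiles between these gave -4.90 and -4.60 points. From the sparsest to the densest group, the values without both libraries were -3.32, -3.45, -3.41 and -3.18 points. On each of the 19 autosomes, the 10-cell mean of these tiles was at most 81.0% and the 500-cell mean at least 84.5%. The median tile difference ran from -4.29 points on chromosome 19 to -4.72 points on chromosome 14, so the difference was not limited to single chromosomes.

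**Figure D2:**
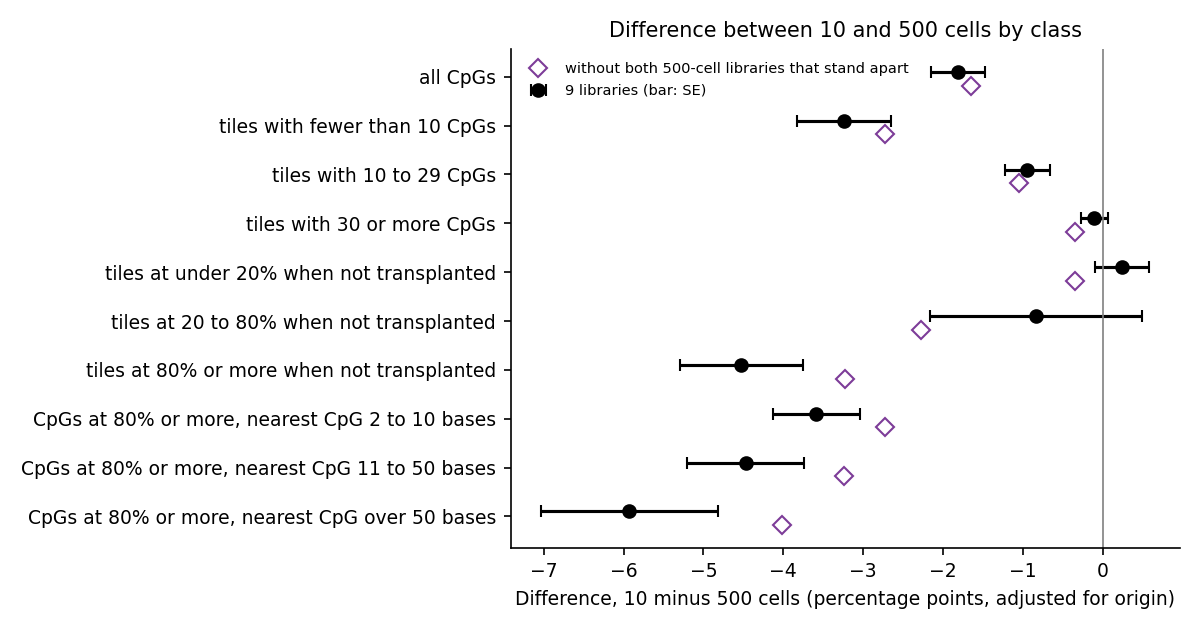
Difference between 10-cell and 500-cell libraries in percentage points, adjusted for origin, for all CpGs and for classes of tiles and CpGs (filled points with SE, 9 libraries; open diamonds, without both 500-cell libraries that stand apart). Values lie furthest below 0 for methylated tiles and for CpGs with no covered neighbour within 50 bases, and near 0 for CpG-rich and for unmethylated tiles, where leaving out the pair of libraries changes the sign for tiles under 20%.

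More tiles stood at an intermediate level after 10 cells. The share of tiles between 20% and 80% was 31.7% to 37.6% (median 35.4%) in the 10-cell libraries and 21.7% to 28.0% in the 500-cell libraries, against 13.4% to 17.4% in untransplanted cells. The groups did not overlap and the difference was 11.04 ± 1.76 points (SE; exact permutation p = 0.025, adjusted p = 0.0417). It was 8.28 points without both libraries that stood apart. This share is not independent of the lower level of methylated tiles given above. Tiles at 80% or more in untransplanted cells averaged 81.1% after 10 and 85.3% after 500 cells, close to the 80% limit. How much of the difference in share comes from tiles crossing that limit was not tested. The 50-cell libraries stood at 26.9% (young) and 32.8% (old).

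Single tiles did not pass the test. With a quasi-binomial test of methylated and total reads per tile, 0 of 95552 tiles (0%) reached an adjusted p under 0.05 and 10 points, and the smallest adjusted p was 0.392. At an unadjusted p under 0.05 there were 11216 tiles (11.7%), of which 10355 (10.8%) were lower and 861 (0.901%) higher with 10 cells. Limma on log2 ratios also called 0, with 16101 tiles at an unadjusted p under 0.05. The median tile differed by -2.06 points and 71.2% of tiles were lower. In 5706 tiles (5.97%) every 10-cell library lay below every 500-cell library, and in 359 tiles (0.376%) above. Without both libraries that stood apart, 2941 tiles in place of 11216 had an unadjusted p under 0.05, of which 2735 were lower. The other way, the offset of each library at the 57 CpG-rich tiles was removed. The quasi-binomial test then again called 0 tiles, and the median tile differed by -3.61 points. In that fit 16688 tiles had an unadjusted p under 0.05, of which 16316 were lower.

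**Figure D3:**
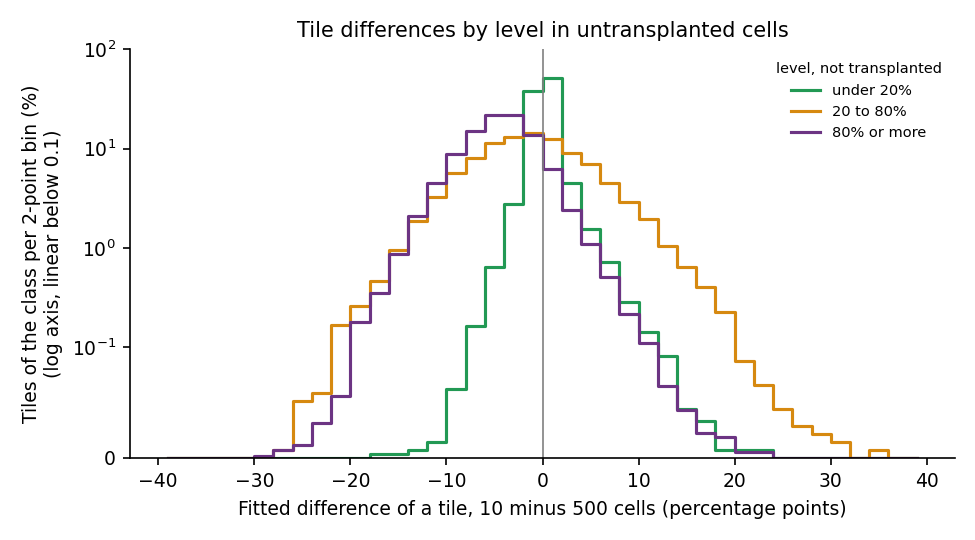
Distribution of fitted tile differences (horizontal axis, 10 minus 500 cells, percentage points) in 2-point bins, as percent of each class of tiles by level in untransplanted cells (vertical axis, logarithmic above 0.1). Tiles at 80% or more lie mostly left of 0 with a median of -4.28 points, tiles under 20% centre near 0 with a median of 0.0509, and tiles between 20% and 80% reach furthest to the right.

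The tiles that moved furthest are given as a description, since none passed the test. They are the 5 largest differences in each direction, and 5 more within 10 kb of a gene start that could be placed on the files, among tiles with no overlap, an unadjusted p under 0.05 and at least 50 reads in each library. Such tiles were 2775 lower (2.9% of all tiles) and 72 higher (0.0754%). Each of the 20 had an adjusted p of 0.392, and none changed sign in the 21 or 22 alternative fits that held the tile. The named gene is the nearest start that could be placed, and a nearer gene may exist.

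Most of the tiles that were lower with 10 cells were highly methylated in untransplanted cells. The tile on chromosome 7 from 17502001 to 17503000, 6.88 kb downstream of the start of Calm3, a calmodulin gene, was the most deeply read of them, with 284 to 563 reads per library. It read 42.1%, 49.1% and 53.6% after 10 young and 43.9% and 49.9% after 10 old cells. After 500 cells it read 77.1% (young) and 62.0%, 60.9% and 70.7% (old), and without transplantation 82.4% to 90.5%. The 50-cell libraries read 48.1% (young) and 48.7% (old), within the range of the 10-cell libraries. Every transplanted library lay below every untransplanted one. That every 10-cell library lay below every 500-cell library was fixed by the rule that chose these tiles. The fitted difference was -21.7 ± 3.82 points (SE), and -14.6 points without both libraries that stood apart.

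A tile 8.01 kb downstream of Kctd10, an adaptor of a ubiquitin ligase, lay at chromosome 5 from 114822001 to 114823000. It read 16.3%, 28.2% and 12.3% after 10 young and 21.5% and 27.6% after 10 old cells, against 55.1% (500 young) and 39.2%, 44.4% and 45.5% (500 old). Libraries from 50 cells read 44.2% (young) and 29.5% (old), between the 10-cell and 500-cell means of their origin. Untransplanted cells read 72.8% to 83.1%, so levels were lower after 500 cells and lower still after 10. The difference was -25.7 ± 4.74 points (SE), and -16.9 points without both libraries that stood apart.

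The fitted difference furthest below 0 lay 2.88 kb downstream of Cul4a, the scaffold of another ubiquitin ligase, at chromosome 8 from 13108001 to 13109000. The 5 libraries from 10 cells read 23.9% to 54.4% (median 39.9%) and those from 500 cells 57.1% to 81.3%, for a difference of -28.8 ± 7.11 points (SE). Both 50-cell libraries, at 42.6% (young) and 41.0% (old), lay within the 10-cell range. Here the spread within the 500-cell group was wide, with 57.1% and 58.1% in 2 libraries and 75.5% and 81.3% in those that stood apart, and the difference without the latter was -16.1 points. Near Frat1, which binds the kinase GSK3 in Wnt signalling, the tile at chromosome 19 from 41913001 to 41914000 read 32.3% to 47.1% (median 38.6%) against 48.3% to 71.7%. Its difference was -21.3 ± 5.36 points (SE), and -11.3 points without both libraries that stood apart. There too the 50-cell libraries, at 37.3% (young) and 41.8% (old), lay within the 10-cell range.

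Other lower tiles lay near Rnf145, a ubiquitin ligase gene (-20.3 points), Zcchc17 (-19.6 points) and 2900005J15Rik (-21.2 points), all above 80% in untransplanted cells. The Zcchc17 difference was -11.0 points without both libraries that stood apart, and that near 2900005J15Rik -13.0 points in old cells alone. Far from a placed start, a tile 54.8 kb from Cap1, on chromosome 4, differed by -24.1 points, and one on chromosome 7 from 77835001 to 77836000 by -25.9 points. The latter read 26.2% to 44.8% after 10 cells and 61.1% to 64.1% after 500 cells. Untransplanted old cells read 29.4% and 30.1% there and young cells 59.3% and 62.8%, so the low level was not limited to 10 transplanted cells. On chromosome 3, from 129137001 to 129138000, untransplanted young cells read 94.2% and 92.0% and old cells 18.1% and 26.6%. Libraries from old cells read 42.7% and 52.0% after 10 and 63.5% to 76.9% after 500 cells, above their untransplanted origin, and the difference between 10 and 500 cells was -23.3 points, or -8.03 points when all 15 libraries were fitted together.

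The tiles that were higher with 10 cells lay between the extremes in most libraries. The largest of these differences lay on chromosome 18, from 14864001 to 14865000, over 13 CpGs and 141 to 361 reads, where no start was placed. It read 72.0%, 81.7% and 66.4% after 10 young and 71.9% and 73.2% after 10 old cells. It read 31.9% after 500 young and 34.1%, 61.8% and 29.9% after 500 old cells, and 32.9% to 59.9% without transplantation. The difference was 34.1 ± 6.19 points (SE), and replicate 2 from 500 old cells was the one of its group near the 10-cell level. Without that library this was the one tile called, at 40.9 ± 4.41 points and an adjusted p of 0.0413 by the quasi-binomial test. Both 50-cell libraries, at 64.3% (young) and 58.1% (old), read nearer to 10 than to most 500-cell libraries.

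A tile 80.9 kb upstream of Sox11 read 59.6% to 85.9% after 10 cells and 37.7% to 54.9% after 500 cells (29.6 points). One 55.6 kb downstream of Ccdc6 read 59.4% to 74.6% against 28.97% to 53.6% (27.9 points, but 15.6 without both libraries that stood apart), with 20.9% to 32.0% in untransplanted cells. A tile 0.514 kb downstream of the start of Anapc2, a subunit of the anaphase-promoting complex, read 44.3% to 66.0% after 10 and 18.9% to 42.7% after 500 cells. Its 24.7 points fell to 4.42 in the fit of all 15 libraries, and untransplanted young cells read 90.6% and 64.3%. A tile 42.5 kb upstream of Rap1b read 62.3% to 79.2% after 10 and 42.5% to 57.1% after 500 cells (22.6 points). Libraries from 50 cells read 88.0% (young) and 71.0% (old) there, and untransplanted cells 49.5% to 63.2%.

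The tile on chromosome 16 from 92695001 to 92696000 lay 2.07 kb downstream of the placed start of Runx1, a transcription factor needed to form HSCs. It read 77.5%, 75.5% and 75.3% after 10 young and 78.5% and 83.6% after 10 old cells. It read 55.4% after 500 young and 65.6%, 74.1% and 61.3% after 500 old cells. Untransplanted cells read 71.7% to 81.6% and the 50-cell libraries 84.2% (young) and 80.3% (old), so 3 of the 4 libraries from 500 cells, including both that stood apart, lay below all others, and replicate 2 from 500 old cells lay within the untransplanted range. The difference was 16.6 ± 3.88 points (SE), or 11.8 points without both libraries that stood apart. The neighbouring tile, 1.07 kb from the start, differed by 7.94 points in the same direction, and by 15.3 points without both libraries that stood apart.

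Smaller differences lay near Nectin3, an adhesion molecule gene (16.3 points), Tfeb, a regulator of lysosomal genes (13.7 points), Spsb3 (11.5 points) and Nr2f6, an orphan nuclear receptor gene (8.57 points). The Spsb3 tile was among the deepest, with 432 to 780 reads. It read 45.4% to 48.8% in all 5 libraries from 10 cells and 30.3% to 45.0% in those from 500 cells, and the 11.5 points became 4.95 without both libraries that stood apart.

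**Figure D4:**
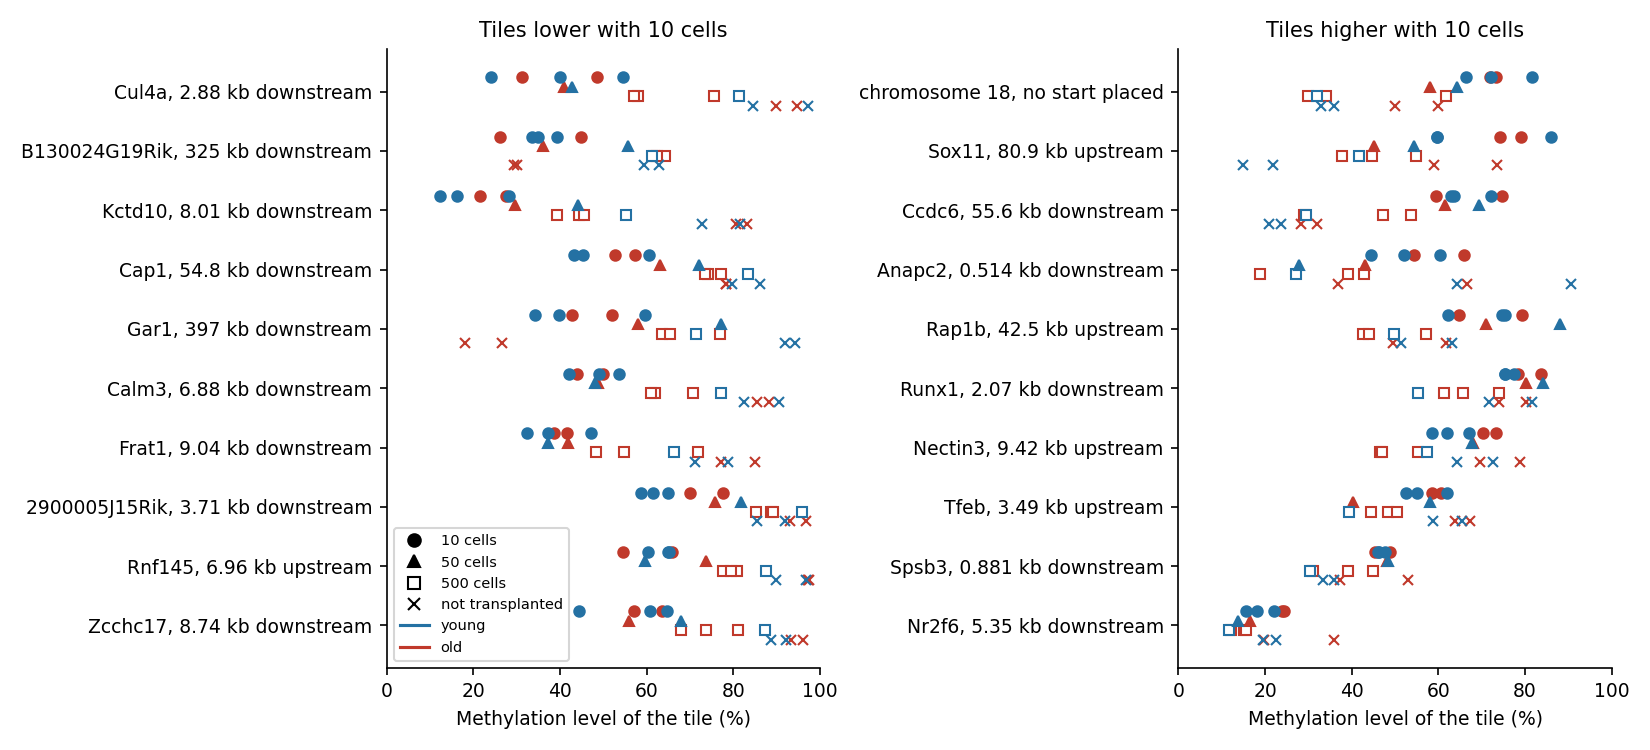
Methylation level in percent (horizontal axis) of the 20 tiles with the largest differences, 10 lower and 10 higher with 10 cells, each named by the nearest gene start that could be placed; every point is 1 library, marked by the number of transplanted cells and coloured by origin. In the left panel untransplanted libraries lie mostly to the right of all others, whereas in the right panel they lie on either side of the 500-cell libraries.

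The promoters that could be placed held few methylated CpGs and differed little. Promoter sequences of RefSeq (GRCm38.p6) were matched to the CpG positions of the files by the spacing of their CpGs, and 8299 promoters of 7394 genes had at least 3 covered CpGs. Of these, 93.5% were under 5% methylated, and the median difference between 10 and 500 cells was 0.0333 points. The quasi-binomial test called 0 of 8299 (0%), with a smallest adjusted p of 0.982. At an unadjusted p under 0.05, 200 (2.41%) were lower and 113 (1.36%) higher. Of the 57 promoters at 80% or more in untransplanted cells, 53 were lower with 10 cells, with a median difference of -2.55 points, and of the 7727 under 5% the median was 0.0383 points. A promoter was placed only where at least 7 covered CpGs matched, so promoters with fewer were not measured. How far the low levels follow from this choice was not tested.

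The 250 bases before the start are shown for 4 genes that stand for the kinds of promoter described below, 5′ to 3′ on the strand of the gene, with the covered CpGs in capitals. They are a myeloid receptor at an intermediate level, an imprinted gene, a germline gene that is methylated in blood and an unmethylated stem cell gene.
Csf2ra: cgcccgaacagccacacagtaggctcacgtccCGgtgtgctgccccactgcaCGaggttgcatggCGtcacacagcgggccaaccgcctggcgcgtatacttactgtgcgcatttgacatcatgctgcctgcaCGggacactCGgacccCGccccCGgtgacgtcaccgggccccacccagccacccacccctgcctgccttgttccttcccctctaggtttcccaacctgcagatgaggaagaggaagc
Mcts2: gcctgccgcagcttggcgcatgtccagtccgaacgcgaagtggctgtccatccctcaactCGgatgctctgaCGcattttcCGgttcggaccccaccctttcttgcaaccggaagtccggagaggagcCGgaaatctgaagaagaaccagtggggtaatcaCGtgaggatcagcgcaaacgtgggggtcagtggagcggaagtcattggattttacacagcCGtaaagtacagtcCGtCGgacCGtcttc
Ddx4: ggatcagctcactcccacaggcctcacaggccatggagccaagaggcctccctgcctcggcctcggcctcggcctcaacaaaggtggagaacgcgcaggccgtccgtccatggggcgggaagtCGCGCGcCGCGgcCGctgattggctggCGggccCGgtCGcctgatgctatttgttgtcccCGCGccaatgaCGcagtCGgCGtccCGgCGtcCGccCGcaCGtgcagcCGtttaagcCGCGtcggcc
Runx1: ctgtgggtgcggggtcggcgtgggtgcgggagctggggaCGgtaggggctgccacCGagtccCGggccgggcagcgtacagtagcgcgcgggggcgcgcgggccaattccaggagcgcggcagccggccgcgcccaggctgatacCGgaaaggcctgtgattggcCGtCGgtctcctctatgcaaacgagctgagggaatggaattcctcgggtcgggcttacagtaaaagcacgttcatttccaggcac
The stretches hold 17, 20, 31 and 27 CpGs, of which 7, 9, 22 and 6 were covered in all 9 libraries.

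Csf2ra encodes the alpha chain of the receptor for GM-CSF, a growth factor of myeloid cells. Over its 7 CpGs, with 189 to 342 reads, it read 40.7%, 47.0% and 37.9% after 10 young and 34.5% and 27.5% after 10 old cells. It read 55.3% after 500 young and 45.8%, 44.3% and 38.8% after 500 old cells, and 44.1% to 54.7% without transplantation. Within each origin every 10-cell library was below every 500-cell library, although the pooled groups overlapped. The difference was -12.2 points, with an adjusted p of 0.982 by the quasi-binomial test over all promoters. Mcts2, an imprinted retrogene, read 71.8% to 86.4% (median 76.3%) after 10 cells and 79.9% to 89.7% after 500 cells, a difference of -8.51 points with overlap.

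Ddx4, an RNA helicase of germ cells, read 88.2% to 91.9% after 10 cells and 87.4% to 92.6% after 500 cells, over 22 CpGs, with a difference of 1.24 points and full overlap. A list of 33 germline genes was added after methylated promoters had been seen, so its level is no finding. In it, 16 promoters of 15 genes were measured. The median level was 86.9% after 10 and 90.5% after 500 cells, and 14 of the 16 were lower with 10 cells, with a median of -2.10 points. One had an unadjusted p under 0.05, at Tex101, a testis protein gene, with -6.40 points. Mael and Asz1, which act in the piRNA pathway that silences transposons in germ cells, differed by -2.55 and -5.20 points. These medians lie close to those of all methylated promoters.

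Genes of blood lineages and of methylation control were described from 9 lists of 122 genes. Promoters of 43 of these genes were placed and measured, 47 promoters in all, of which 41 were under 5% methylated. Their median difference was 0.00447 points, against 0.0333 over all promoters, and 0 were called. At an unadjusted p under 0.05, 3 were lower and 2 higher, against 2.41% lower and 1.36% higher over all promoters. Within 5 kb of the placed starts lay 173 tiles with a median difference of 0.0901 points, of which 5 were lower and 7 higher at an unadjusted p under 0.05, against 10.8% lower and 0.901% higher over all tiles. Only 8 of the 173 were at 80% or more in untransplanted cells, and their median was -1.89 points.

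Of 18 stem cell transcription factors, 7 were measured, and all 8 of their promoters were under 5%. Hlf, a leukaemia-linked factor of HSCs, had an unadjusted p under 0.05 at 0% to 3.17% after 10 and 0% after 500 cells. With 148 to 243 reads per library, these levels rest on a few methylated reads. Among 40 tiles near these genes, 2 were lower and 3 higher at an unadjusted p under 0.05. The lower ones lay near Gata2, needed for HSC maintenance, at -8.52 points, with 11.7% to 17.8% after 10 and 16.4% to 27.8% after 500 cells, and near Meis1, a homeobox partner of Hox proteins, at -3.09 points (-5.61 without both libraries that stood apart). Near Gata2, untransplanted cells read 5.56% to 10.2%, below both groups, and the 50-cell libraries 15.2% (young) and 0.543% (old). The third higher one, beside both tiles of Runx1, lay near the corepressor gene Cbfa2t3. It read 67.6% to 84.6% after 10 and 52.9% to 76.2% after 500 cells, and 13.7% to 23.0% without transplantation. All transplanted libraries there lay above all untransplanted ones, and the difference between 10 and 500 cells was 12.95 points, or 1.56 points without both libraries that stood apart.

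Of 10 surface and signalling genes of stem cells, the promoters of Cxcr4, a homing receptor, and Flt3, a cytokine receptor, were measured, and none passed an unadjusted p of 0.05. Of 12 myeloid genes, 3 were measured. Beside Csf2ra, the promoter of Irf8, a factor of monocytes and dendritic cells, read 0% to 1.52% after 10 and 0% after 500 cells. With 132 to 205 reads per library, the Irf8 levels rest on a few methylated reads. A tile 1.92 kb upstream of Cebpb, a factor of granulocytes, differed by -19.3 points, with 26.2% to 47.5% against 42.9% to 61.1% and overlap. Near Csf2ra, a tile at the start differed by -11.4 points and another, 2.82 kb downstream, by 9.41 points (6.12 without both libraries that stood apart).

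Of 18 lymphoid genes, 7 were measured with 8 promoters and 43 tiles, and none had an unadjusted p under 0.05. The promoter of Bcl11b, a T cell factor, held the highest level of these, with 0% to 7.50% after 10 and 2.08% to 9.84% after 500 cells. Of 15 erythroid and platelet genes only Zfpm1, a cofactor of Gata1, was measured. Its promoter read at most 0.404%, and a tile 3.54 kb upstream read 60.6% to 78.3% against 78.0% to 83.9%, at -11.3 points with a narrow overlap.

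The enzymes that write, copy and remove methylation had unmethylated promoters in all libraries. Of 9 genes, Dnmt1, Dnmt3a, Dnmt3b, Uhrf1, Tet2, Tet3 and Tdg were measured with 9 promoters. Each averaged under 5%, and none of them or of the 14 tiles nearby had an unadjusted p under 0.05. Dnmt1, the maintenance methyltransferase, read 0% to 0.453% after 10 and 0% to 0.109% after 500 cells, and Uhrf1, which guides it to newly copied DNA, 0% to 0.276% and 0% to 0.354%. Of 12 polycomb genes, Rnf2, Bmi1, Suz12, Cbx7 and Ring1 were measured, all under 5%, with none past that threshold.

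Of 9 cell cycle inhibitors, 5 were measured. Cdkn2b had an unadjusted p under 0.05 at 0% after 10 and 0.407% to 0.797% after 500 cells. With 93 to 251 reads per library, these levels rest on a few methylated reads, and untransplanted libraries read 1.71% to 3.57%. The promoter of Cdkn2a, which encodes p16 and p19, read 3.25% to 9.30% after 10 and 6.85% to 10.1% after 500 cells, with overlap and a difference of -2.82 points. A tile 1.02 kb downstream of its start went the other way by 14.6 points, at 40.3% to 64.8% against 32.8% to 57.5%, again with overlap.

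Of 19 imprinted loci, 6 had a placed promoter. Plagl1, a zinc finger gene, and Igf2r, which clears the growth factor Igf2, read 17.7% to 32.1% and 21.2% to 41.9% after 10 cells. After 500 cells Plagl1 read 11.5% to 35.5%, and Igf2r read at most 35.9%, with its lowest level in the library from 500 young cells. Their differences of 3.06 and 4.07 points were within the spread of each group. The promoters of Gnas and Igf2 that were placed were under 5%. A tile 2.01 kb upstream of the Gnas start read 33.6% to 48.1% after 10 and 32.2% and 46.7% in 2 libraries from 500 old cells, but 13.1% and 17.6% in both libraries that stood apart. Its difference was 15.5 points, and 4.39 points without them.

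In the tiles that were lower with 10 cells, with no overlap and an unadjusted p under 0.05, the 50-cell libraries lay mostly between. The young 50-cell library was between the 10-cell and 500-cell means of its origin in 72.4% of 3270 such tiles, and the old one in 70.2% of 3326, against 38.5% and 33.7% of all tiles. These tiles were chosen by the distance between both means, which widens the room between them. In the young tiles the median level was 78.1% with 10 cells and 84.4% with 50 cells, and in the old tiles 78.1% and 81.7%. Among the 84 and 85 higher tiles the shares were 47.6% and 55.3%.

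No tile passed a test of whether the difference depends on origin. A quasi-binomial test of the interaction of cell number and origin called 0 of 95552 tiles (0%), with a smallest adjusted p of 1.0, and 2364 tiles (2.47%) had an unadjusted p under 0.05. With 1 library from 500 young cells, this test cannot tell that library from its group, and limma was not run on it. Among methylated tiles the difference of means was -5.69 points in young and -3.80 points in old libraries, and the young value contains a library that stood apart.

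Libraries of a group differed among themselves by a few points per tile. The median absolute difference between a pair of libraries was 3.10 to 3.68 points after 10 young cells, 3.19 after 10 old cells and 2.35 to 3.17 after 500 old cells. It was 1.80 and 1.99 points between the untransplanted young and old pairs. In the 46428 tiles with at least 100 reads in each library the transplanted values fell to between 1.14 and 1.65 points, and the 10-cell and 500-cell ranges overlapped. Differences of 20 points or more were seen in 2.12% to 5.39% of tiles between 10-cell pairs and in 0.799% to 2.39% between 500-cell pairs. These pairs share libraries and were not tested.

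A few tiles stood out in a single library. A tile was counted where the other 8 libraries lay within 20 points of each other and 1 library lay at least 30 points outside their range, of 88456 tiles with at least 30 reads in each library. Replicate 1 from 10 young cells had 29 such tiles below the others (0.0328%) and 1 above. Replicate 2 from 10 old cells and replicate 3 from 10 young cells had 4 each (0.00452%), the library from 500 young cells had 5 (0.00565%), and the other 5 libraries had none. Between 10 and 500 cells the number differed by 3.67 tiles (exact permutation p = 0.7). For these counts the permutation test allows no p below 0.15, so it cannot decide whether the number differs. The difference became 0.214 without replicate 1 from 10 young cells.

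The 29 lower tiles of that library lay on 15 chromosomes, and 86.2% of them were at 80% or more in untransplanted cells. Its median level there was 42.9% and its highest 58.2%, against a median of 85.3% in the other 8, and 20 of the 29 lay between 35% and 60%. The rule put this library at least 30 points below the others, so the gap and the upper limit of its levels follow in part from it. A tile 2.01 kb downstream of the start of Pigb, which acts in the synthesis of GPI anchors, read 57.5% in it and 95.4% and 100% in the other libraries from 10 young cells. A tile 9.33 kb upstream of Kansl1l read 38.2% against 80.2% and 79.2%.

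**Figure D5:**
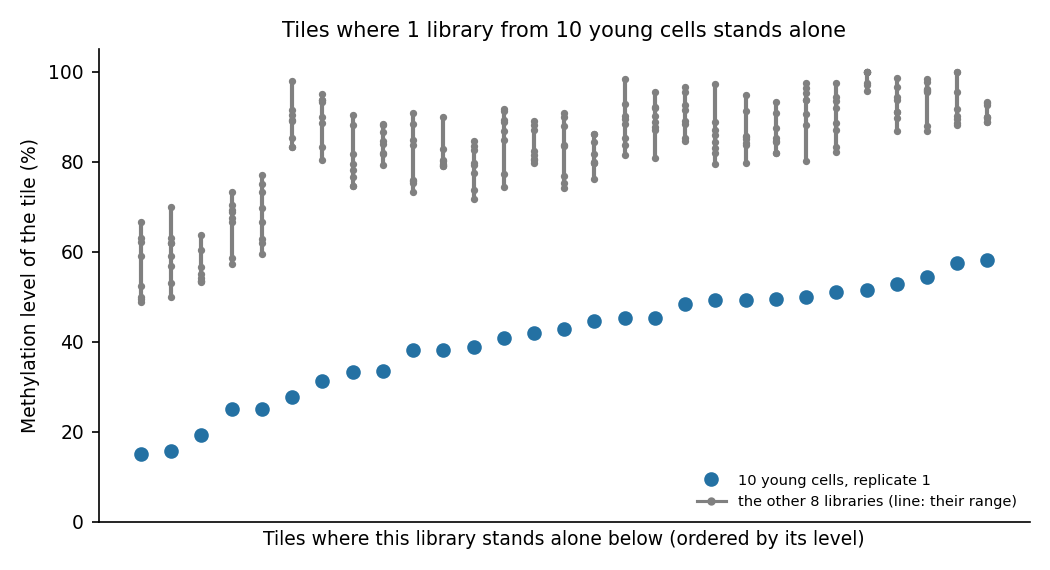
Methylation level in percent (vertical axis) at the 29 tiles where replicate 1 from 10 young cells stands alone below the other libraries, ordered by its level (blue), with the other 8 libraries and their range in grey. The blue points run up to 58.2%, and by the rule that chose the tiles the grey ranges lie at least 30 points above them.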

How the data were processed

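Each deposited file lists CpGs on mm9, per the submitters' processing notes, with the methylated over the total reads in column 4 and a score in column 5. The score that the authors deposited equalled 1000 times the methylated share, rounded down, in 100% of lines; it was not used further. Which aligner, caller, filters and duplicate handling were used is not given in the sources used here. Reads carry no molecular identifiers, so counting errors are lower limits.

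Reads of autosomal CpGs with at least 5 reads in all 9 libraries were summed in tiles of 1000 bases with at least 3 CpGs. Tiles were fitted with a quasi-binomial model with origin as covariate, Williams' weights and a dispersion moderated across tiles (limma 3.58.1 in R 4.3.3), with 6 residual and 7.94 prior degrees of freedom. P-values came from an F test with Benjamini-Hochberg adjustment over all tiles, and a call needed 10 points. Standard errors of tiles follow from that F. The fit was tested on simulated data. Single values per library were compared by least squares with origin and exact two-sided permutation within origin. Classes by level used tiles with at least 15 reads in each untransplanted library, which 1275 tiles lacked. Python 3.11.15 with numpy 2.4.6, scipy 1.17.1, pandas 2.3.3 and matplotlib 3.10.9 was used.

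The members and lists were chosen with earlier results of these data known. The planned rule for named tiles, the 10 largest gains and losses among called tiles, named none, and tiles were to be joined to genes only with an mm9 annotation, which was not used here. The rule for the 20 tiles described was therefore chosen after the values were seen, and so were the placing of promoters, the germline list, the count of tiles where 1 library stands alone, the pair of libraries that stand apart, and 23 of the 25 single measures. Gene names come from RefSeq promoter sequences (GRCm38.p6, 300 bases each). A promoter was placed where at least 7 covered CpGs, and every covered CpG of the stretch, fell on its CpGs, with 3 more than at the next best place. Of 16477 promoters tried, 8911 were placed, and order and distance to a neighbouring start were kept in 99.7%; the other 24 were dropped. Stricter and looser thresholds were tried before this one was chosen.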

Additional observations from a re-analysis of the deposited data

Results flagged for a closer look

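In the 5 libraries from 10 cells and the 4 from 500 cells, 25 measures were searched for a library far from the rest of its group, which makes 50 groups, of which chance flags about 1 in 20. Replicate 2 from 10 old cells was the highest of its group at unmethylated tiles, those under 20% in untransplanted cells. It read 2.774% in tiles of 10 to 29 CpGs, against 2.136% to 2.298% in the other 4 libraries from 10 cells. In tiles with 30 or more CpGs it read 1.664%, against 1.216% to 1.335%. It was also the least deeply read of the 9, with 30637818 reads, and its level in the 57 CpG-rich intermediate tiles, 44.4%, was the highest. Replicate 1 from 10 young cells was far from its group in the number of tiles where it stood alone, 30 against 0 to 4. The library from 500 young cells had 5 such tiles against 0 in the other 3 from 500 cells, at a median level of 27.6% against 72.9%. The rule for such tiles sets this gap in part.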

How the results depend on the processing

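No tile was called in any alternative but one: leaving out each library in turn gave 0 to 1 tiles, the 1 without replicate 2 from 500 old cells. With the replicate block the count was 0 (10097 tiles at an unadjusted p under 0.05 with the numbers of the labels, 10765 with those of the titles). Same-numbered libraries deviated from their groups with correlations of -0.107 to 0.107. Correlations of tile deviations cannot decide whether the numbers pair the libraries, and the labels do not say. With that replicate block the mean CpG difference was -1.98 points (exact permutation p = 0.1). As a share of all methylated reads it reversed to 2.29 points, and to 2.22 points with CpGs over 500 reads left out, a setting added after seeing the data; why was not tested. Old cells alone gave -1.64 points for all CpGs and -2.87 points for CpG-poor tiles, and leaving out both 500-cell libraries that stand apart gave -1.65 and -2.72 points; neither design can reach an exact p under 0.05. Leaving out each library in turn gave -2.04 to -1.64 points and -3.60 to -2.87 points, with an exact p above 0.05 without either 10 old library or the 500 young one, where fewer arrangements are left. At least 10 reads per CpG and no deep CpGs changed neither call. The spread between libraries was 3.47, 3.19 and 2.84 points for 10 young, 10 old and 500 old cells; it was 1.51, 1.54 and 1.44 in tiles with 100 reads and 6.90, 6.26 and 5.89 in tiles between 20% and 80%. In windows of 1 megabase, also added later, reads were summed over CpG-poor tiles. By adjusted p alone the quasi-binomial test called 0 of 2303 windows (smallest adjusted p = 0.0657). At an unadjusted p under 0.05, 510 were lower and 23 higher. Of all windows, 1330 were lower and 973 higher. The median window differed by -0.7285 points, against -3.24 points for the mean level of CpG-poor tiles, and why was not tested. Tiles at an unadjusted p under 0.05 ranged from 2941 without both libraries that stand apart and 4646 without the 500 young library to 18102 with tiles of 1 CpG or more.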
